A study of Mus musculus with 2 samples.

Results

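The gene set described here was p53 and its direct transcriptional targets: Trp53, which encodes p53, and the target genes Mdm2, Cdkn1a, Trp53inp1, Ccng1, Phlda3, Bbc3, Zmat3, Ddit4l and Aen. The 10 genes were chosen by their symbols, out of 32286 features in scRNA-seq (single-cell RNA sequencing) data of mouse embryonic stem cells (ESCs) and of epiblast-like cells differentiated for 48 h (48h-EpiLCs). All 10 were present in both libraries. Their RNA was compared between 2 cell lines and between 2 stages, and their joint detection was examined cell by cell.

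p53 is a transcription factor that is kept scarce in unstressed cells because Mdm2, the product of one of its own target genes, ubiquitinates it and sends it to the proteasome. Much of its control is therefore exerted on the protein, and the RNA of Trp53 is not a measure of its activity. When p53 is stabilised, its targets slow the cell cycle, repair DNA, restrain growth signalling or start apoptosis. Pluripotent cells transcribe Trp53 strongly, divide with a short G1 phase and are prone to die after DNA damage.

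Wild-type (WT) cells bore a ROSA mT/mG reporter that transcribes tdTomato, and the other cells were deficient for Cnot8 (KO), a deadenylase of the Ccr4-Not complex that shortens the poly(A) tails of mRNAs. Both lines had an ICR background and were mixed in equal numbers before the library was made, with 1 library at 0 h and 1 at 48 h. The ESCs had been kept in serum/LIF medium on feeder-coated dishes, and the methods name mitomycin C-inactivated embryonic fibroblasts of ICR mice as feeder cells. The EpiLCs grew on Matrigel in N2B27 medium with activin A, bFGF and KSR, and the methods describe their formation from ESCs in 2i/LIF. Stage, medium, feeder cells and library thus cannot be told apart, and there were no replicates, so that no difference reported here has a replicate check and no test was run. KO ESC lines were derived from blastocysts of heterozygous parents by picking single colonies, so that each line stands for 1 derivation.

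Cells in which 1000 or more genes were detected and no more than 10% of transcripts were mitochondrial were kept, which left 11054 of 13184 barcodes in the ESC library and 9400 of 12427 in the 48h-EpiLC library. The median was 11883 and 15284 unique molecular identifiers (UMIs) per kept cell, and 41 barcodes occurred in both libraries. The WT line was taken as cells with at least 1 tdTomato UMI and none of the Y-linked Ddx3y, Eif2s3y, Kdm5d and Uty (435 ESCs and 368 48h-EpiLCs). Cells with no tdTomato and at least 2 UMIs of these Y-linked genes formed the KO line (2978 and 2977 cells). The remaining 7641 and 6055 cells fitted neither rule, among them 35 cells in each library with the marks of both lines. The lines thus differed in Y-linked transcripts besides genotype, as the rule itself requires. In the lines extended from autosomal genes, described below, Y-linked RNA was 10.2 CPM in WT and 122 CPM in KO ESCs. In 48h-EpiLCs it was 9.42 and 113 CPM. These extended classes include marked cells, so they are not free of the rule. Y-linked content and genotype cannot be told apart here, and what differed between the lines cannot be laid to Cnot8 alone.

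Cnot8 RNA, the targeted transcript, was not lower in the KO line. It was 72.1 CPM (UMIs summed over the cells of a class and scaled to a common total) in KO and 43.1 CPM in WT ESCs, and in 48h-EpiLCs 62.6 against 49.7 CPM, so that the RNA gave no independent check of the label. Cnot8 protein was not measured in these libraries. Pluripotency markers summed to between 4340 and 6610 CPM in the 4 line and stage classes. The 48h-EpiLC markers summed to 378 CPM in WT and 390 CPM in KO ESCs, whereas WT and KO 48h-EpiLCs had 1200 and 1020 CPM. Feeder fibroblast markers summed to 16.1 CPM in WT and 67.6 CPM in KO ESCs, a difference that touches Cdkn1a below. The line rule could place feeder cells without tdTomato in the KO class but not in the WT class.

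Promoter sequence was available for 8 of the 10 genes (RefSeq, GRCm38.p6, 250 bases before to 50 bases after the gene start) and was searched on both strands for the p53 response element, a pair of 10-base half-sites. A match allowed up to 13 bases between the half-sites and 2 mismatches in all, and kept the C and G at the core of each half-site. Of these 8 genes, 2 held a match, Cdkn1a and Ccng1, against 4.71% of 27025 genes. They are shown because both belong to the genes whose RNA was found together in the same cells. The half-sites are in capitals, and the other letters are flanking and spacer bases.

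Cdkn1a: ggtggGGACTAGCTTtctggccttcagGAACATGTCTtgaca

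Ccng1: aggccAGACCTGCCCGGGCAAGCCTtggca

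The Cdkn1a stretch (chr17:29090901-29090942, plus strand) matched without a mismatch, with 12 bases between the half-sites, and its site began 73 bases before the gene start. The Ccng1 stretch (chr11:40755457-40755486, minus strand) had 1 mismatch and no spacer, and its site began 195 bases before the start. At most 1 mismatch was found in 0.718% of all genes. A match describes letters only, and no binding was measured in these cells.

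Trp53 (ENSMUSG00000059552, GRCm38 chr11:69580359-69591873) was detected in 98.9% of WT and 96.9% of KO ESCs, and in 93.8% and 97.5% of 48h-EpiLCs. Its level was 358 CPM (343 to 373) in WT and 320.2 CPM (315 to 326) in KO ESCs. In 48h-EpiLCs it was 212 CPM (201 to 224) in WT and 252 CPM (248 to 256) in KO cells. Both 48h-EpiLC values thus lay below both ESC values, and the order of the lines was opposite at the 2 stages. The ranges in parentheses here and below are exact 95% intervals, which cover counting error only.

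Mdm2 (chr10:117688875-117710758), the ubiquitin ligase that removes p53, was measured at 114 CPM in WT and 120.2 CPM in KO ESCs. It was 108 CPM in WT and 164 CPM in KO 48h-EpiLCs. KO 48h-EpiLCs stood apart from the other 3 classes, whose intervals ran from 99.6 to 123.5 CPM. Trp53inp1 (chr4:11156431-11174379) encodes a p53-induced nuclear protein with roles in cell death and autophagy. Its level was 55.7 CPM in WT and 45.2 CPM in KO ESCs, and 42.0 CPM in WT and 64.0 CPM in KO 48h-EpiLCs. The KO line was the lower one in ESCs and the higher one in 48h-EpiLCs, although the ESC ratio spanned equality (0.965-fold, 0.919 to 1.01) once the lines were extended to more cells, as described below.

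A pair of targets acts in the cell cycle. Cdkn1a (chr17:29090976-29100727) encodes p21, the inhibitor of cyclin-dependent kinases through which p53 halts cells in G1. It was measured at 63.7 CPM in WT and 71.5 CPM in KO ESCs, and at 105 CPM in WT and 90.9 CPM in KO 48h-EpiLCs. Cdkn1a was the 1 member whose level in 48h-EpiLCs was lower in the KO line with an interval that excluded equality, which it no longer did in the extended lines described below. It overlaps the unclassified transcript AC167363.2 on the opposite strand, and the strand setting of the counting was not stated. Ccng1 (chr11:40748552-40755311) encodes cyclin G1, which works with protein phosphatase 2A on Mdm2. It was 110.3 CPM in WT and 102 CPM in KO ESCs, and 149 CPM in WT and 211 CPM in KO 48h-EpiLCs.

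Bbc3, Aen and Phlda3 serve apoptosis. Bbc3 (chr7:16308393-16318205) encodes PUMA, a BH3-only protein that neutralises anti-apoptotic Bcl2 proteins. It was 24.2 CPM in WT and 22.3 CPM in KO ESCs, and 29.6 CPM in WT and 34.8 CPM in KO 48h-EpiLCs. Aen (chr7:78895854-78911209), which encodes an apoptosis-enhancing nuclease, was 109 CPM in WT and 102 CPM in KO ESCs, and 116 and 144 CPM in 48h-EpiLCs. Phlda3 (chr1:135766119-135769136) encodes a pleckstrin homology protein that competes with Akt for membrane lipids. Its values were 76.4 CPM in WT and 78.2 CPM in KO ESCs, and 93.25 and 134 CPM in 48h-EpiLCs. In each of these genes the interval of the ratio of KO over WT included equality in ESCs and lay above it in 48h-EpiLCs.

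The last pair acts on RNA and on growth signalling. Zmat3 (chr3:32334792-32366014), a zinc finger protein that binds RNA and regulates splicing, was 48.3 CPM in WT and 32.3 CPM in KO ESCs, and 44.9 and 40.55 CPM in 48h-EpiLCs. It was the 1 target that was lower in KO than in WT cells at both stages, although the 48h-EpiLC interval included equality. Ddit4l (chr3:137621612-137628333) encodes REDD2, an inhibitor of mTORC1. Its level was 13.3 CPM in WT and 14.65 CPM in KO ESCs, and 25.6 CPM in WT and 39.3 CPM in KO 48h-EpiLCs. UMIs count 3′ ends, so these levels were not divided by transcript length.

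**Figure D1:**
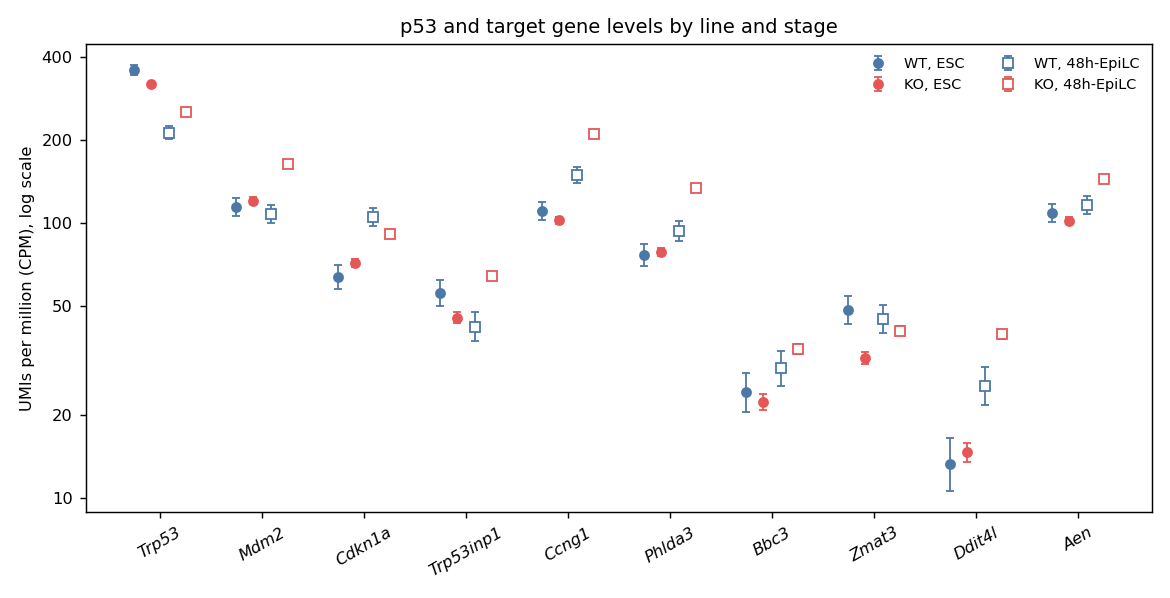
Level of each of the 10 genes in CPM (log axis) for WT and KO cells of the ESC library (filled) and the 48h-EpiLC library (open), with exact 95% Poisson intervals that cover counting error only. Trp53 is lower in both 48h-EpiLC classes than in both ESC classes, whereas KO 48h-EpiLCs are the highest class for Mdm2, Trp53inp1, Ccng1, Phlda3, Bbc3, Ddit4l and Aen.

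The first comparison set the KO line against the WT line before differentiation. In ESCs most of the 10 genes differed little between the lines. The log2 ratios of KO over WT ran from -0.58 to 0.17 with a median of -0.11, while the median of the 9277 genes with a mean of at least 5 CPM was 0.13. The interval lay below 0 for Trp53 (-0.16), Trp53inp1 (-0.30) and Zmat3 (-0.58), above 0 for Cdkn1a (0.17), and spanned 0 for the other 6. Only Cdkn1a and Ddit4l lay above the median of all genes. Of the 10 ratios 4 lay above 0, beside 63.3% of those of all genes.

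None of the 10 was 1.5-fold higher in KO ESCs, as were 13.9% of all genes tested, and none was 1.5-fold lower, as were 5.61%. Zmat3 came closest to that fold, at 1.49-fold lower (log2 interval -0.76 to -0.39), and it passed it under several other scalings and cell choices. Some 5.74% of genes had a lower ratio than Zmat3. The Cdkn1a difference (1.12-fold, 1.01 to 1.25) depended on 25 cells of the KO line with feeder fibroblast markers, described below, and turned to a log2 ratio of -0.019 without the cells that carried markers of other cell types.

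In 48h-EpiLCs the KO line had more RNA of most p53 targets. Ratios of KO over WT had a median of 0.41 on the log2 scale, against 0.08 over 9385 genes. Of the 10 ratios, 8 lay above 0 with their intervals, and 59.4% of the ratios of all genes lay above 0. The share of all genes with an interval above 0 was not computed. Ddit4l was 1.54-fold higher (1.31 to 1.82), Trp53inp1 1.52-fold (1.34 to 1.74) and Mdm2 1.52-fold (1.41 to 1.65). Phlda3 (1.44-fold), Ccng1 (1.42-fold), Aen (1.25-fold), Trp53 (1.19-fold) and Bbc3 (1.18-fold) were also above WT. Cdkn1a was the exception at 0.867-fold (0.799 to 0.942; 0.988-fold, 0.956 to 1.02, in the extended lines), and the interval of Zmat3 (0.904-fold, 0.798 to 1.03) spanned equality.

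Of the 10 genes, 3 were at least 1.5-fold higher in KO 48h-EpiLCs, against 9.04% of all genes, and 0 were at least 1.5-fold lower, against 4.95%. These 3 stood just past the fold, and none of the 10 passed it when the total was scaled by TMM factors, by size factors from the median of ratios, or without ribosomal protein and mitochondrial genes. Scalings moved all genes together: relative to the median of all genes, the members' median stayed at 0.33 with TMM factors as well. Ribosomal protein transcripts made up 24.0% of the UMIs of WT and 21.8% of those of KO 48h-EpiLCs, and their part in the ratios was tested only by this change of total.

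**Figure D2:**
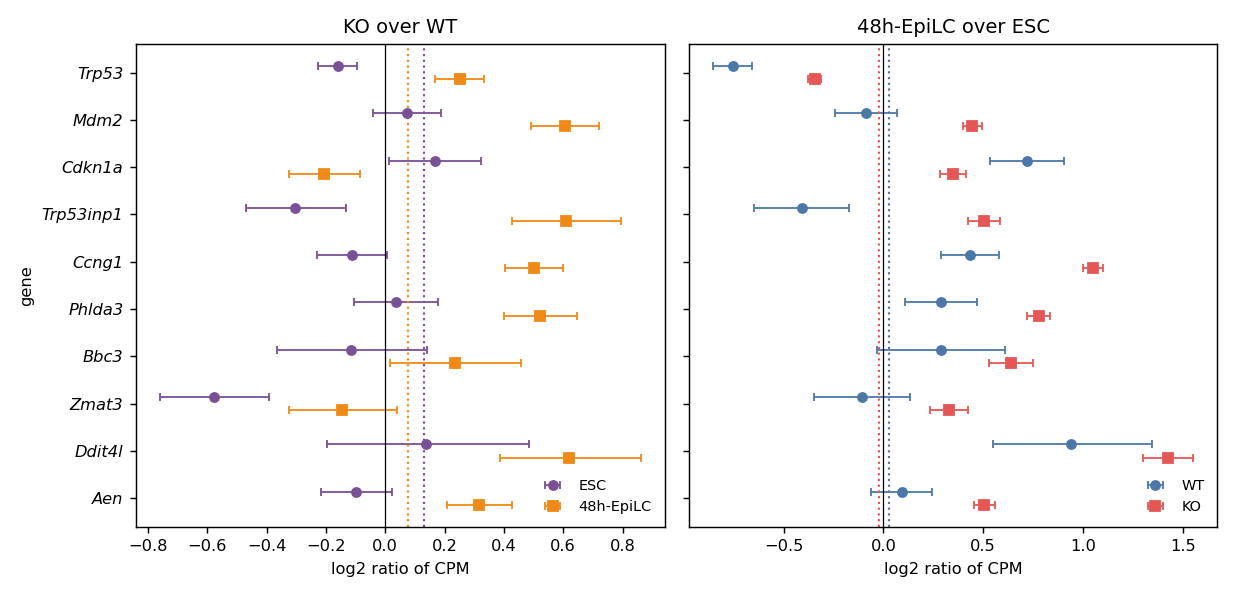
log2 ratios of CPM for each gene with exact 95% intervals that cover counting error only, for KO over WT in each library (left) and for 48h-EpiLC over ESC in each line (right). Dotted lines mark the median of all genes tested. In the left panel 8 genes lie right of 0 in 48h-EpiLCs and 4 in ESCs, beside 59.4% and 63.3% of all genes. In the right panel Trp53 is the 1 gene left of 0 in both lines.

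The second comparison followed the genes from ESCs to 48h-EpiLCs within a line. Trp53 RNA was lower in 48h-EpiLCs, 1.69-fold in WT (log2 ratio -0.76, -0.85 to -0.66) and 1.27-fold in KO cells (-0.34, -0.38 to -0.31). Several of its targets were higher over the same interval. In WT cells Ddit4l was 1.92-fold higher (1.46 to 2.54) and Cdkn1a 1.65-fold higher (1.45 to 1.87). Ccng1 was 1.35-fold and Phlda3 1.22-fold higher, Trp53inp1 was 0.753-fold, and the intervals of Mdm2, Bbc3, Zmat3 and Aen spanned equality.

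In KO cells every one of the 9 targets was higher at 48 h, with an interval above equality. Of all genes tested, 47.9% had a ratio above equality. Ddit4l led with 2.68-fold (2.46 to 2.93), followed by Ccng1 with 2.07-fold (2.00 to 2.14), Phlda3 with 1.71-fold and Bbc3 with 1.56-fold. Aen, Trp53inp1 and Mdm2 lay between 1.36-fold and 1.42-fold, and Cdkn1a and Zmat3 at 1.27-fold and 1.25-fold. Their median log2 ratio, Trp53 included, was 0.50, against -0.02 over 9478 genes. In WT cells the median was 0.19, against 0.03 over 9242 genes.

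At least 1.5-fold higher in 48h-EpiLCs were 2 of the 10 genes in WT cells, against 14.6% of all genes, and 4 in KO cells, against 9.51%. Trp53 was the 1 gene at least 1.5-fold lower in WT cells, against 12.4% of all genes, and in KO cells there was none, against 11.1%. KO cells were deeper at 48 h (median 17628 UMIs, against 13368 at 0 h). Within KO cells of 10000 to 20000 UMIs, 7 of the 10 genes were at least 1.5-fold higher in 48h-EpiLCs than in ESCs, and their median log2 ratio was 0.70. The share and median of all genes within this range of depths are not given here, so this count has no background beside it.

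Set against each other, the line ratios were shifted between the stages. The log2 ratio of KO over WT was larger in 48h-EpiLCs than in ESCs for 9 of the 10 genes, by 0.35 (Bbc3) to 0.91 (Trp53inp1), and smaller for Cdkn1a, by -0.37. The median shift was 0.46, against -0.03 over 8827 genes, of which 45.0% shifted upwards. These shifts rest on 1 library per stage and were not tested, and the 10 genes are not independent of each other.

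Most cells carried neither mark, so the lines were also extended to them from the 50 autosomal genes that differed most between the marked cells. This gave 4149 WT and 6641 KO ESCs, and 3962 WT and 5228 KO 48h-EpiLCs. Of the marked cells that were held out, 3375 of 3413 ESCs and 3317 of 3345 48h-EpiLCs received a call. Of those called, 96.9% and 97.1% were returned to their own line. Most marked cells were of the KO line, and this share was not taken for each line. With these larger classes, in 48h-EpiLCs Ddit4l was 1.76-fold, Mdm2 1.69-fold, Trp53inp1 1.57-fold and Ccng1 1.46-fold higher in KO cells. Calls on the other side changed: Zmat3 was 0.851-fold with an interval that now excluded equality (0.810 to 0.893), and Cdkn1a was 0.988-fold with one that spanned it (0.956 to 1.02).

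In ESCs the extension moved 5 genes beyond the counting error of the marked cells. Mdm2 was 1.24-fold (log2 interval 0.26 to 0.35) and Cdkn1a 1.48-fold (0.51 to 0.63) higher in the extended KO class. Phlda3 was 1.17-fold (0.17 to 0.29) and Ccng1 1.03-fold (0.0008 to 0.10) higher, and Trp53inp1 was no longer below equality (log2 ratio -0.05, -0.12 to 0.02). The median over the 10 genes became 0.05. Without cells that carried markers of other cell types, the Cdkn1a log2 ratio was 0.29 in place of 0.57. Zmat3 remained lower, at 0.719-fold (0.681 to 0.759).

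The ESC library also held cells that were not ESCs, and most members were much higher in them. In 95 cells (0.859% of the library), at least 0.2% of the UMIs came from 11 fibroblast markers, as would be found in feeder cells. Their Pou5f1 was 15.8 CPM against 81.6 CPM in the 10920 cells without markers of other cell types. Cdkn1a was 1029 CPM in these cells and 66.4 CPM in the unmarked ones, 15.5-fold higher (14.6 to 16.4), and 12.8% of all Cdkn1a UMIs of the library came from them.

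The other targets followed. Phlda3 was 6.51-fold higher in the feeder-marker cells, Mdm2 5.13-fold, Ccng1 4.56-fold, Ddit4l 3.54-fold, Trp53inp1 3.01-fold, Zmat3 2.54-fold and Bbc3 1.76-fold. Aen stood at 1.06-fold (0.900 to 1.25), and Trp53 itself was lower, at 170 CPM against 331 CPM. Hence 8 of the 10 genes were at least 1.5-fold higher, against 33.7% of 10097 genes. The markers that chose these cells include no member.

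Of the feeder-marker cells, 25 fell in the KO line, 0 in the WT line and 70 in neither. The line rule fixed this split. These cells held no tdTomato UMI, so none could be placed in the WT line. Those with at least 2 Y-linked UMIs were placed in the KO line. The 25 cells gave 396 of the 3152 Cdkn1a UMIs of the KO line (12.6%). Below the 0.2% limit lay a further group: 333 ESCs with 0.05% or more of their UMIs from any list of other cell types had 377 CPM of Cdkn1a and 238 CPM of Mdm2. The single cell with the most Cdkn1a, 120 of 8479 UMIs, was among those 333. Without all these cells Cdkn1a was 57.2 CPM over the ESC library and its KO over WT log2 ratio was -0.27.

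**Figure D3:**
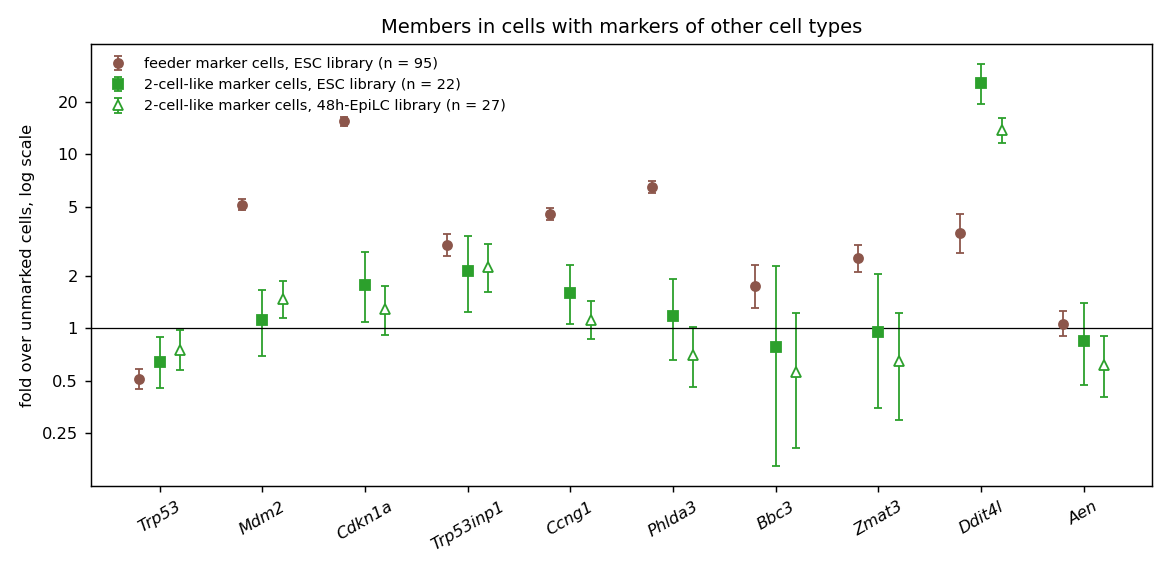
Fold of each gene in cells with markers of other cell types over cells without such markers (log axis), with exact 95% intervals that cover counting error only. Circles are the 95 feeder-marker cells, filled squares 22 cells of the ESC library and open triangles 27 cells of the 48h-EpiLC library with 2-cell-like markers. Cdkn1a is 15.5-fold higher in the feeder-marker cells, and Ddit4l is 25.6-fold and 13.9-fold higher in the cells with 2-cell-like markers.

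Cells with markers of the 2-cell-like state, a rare and transient state of ESCs with Zscan4 genes, had a different profile. In 22 ESCs (0.1% or more of UMIs from 10 such markers), Ddit4l was 355 CPM against 13.9 CPM in unmarked cells, 25.6-fold higher (19.5 to 33.1). In 27 such 48h-EpiLCs it was 457 CPM against 32.9 CPM, 13.9-fold higher (11.7 to 16.3). At least 1 Ddit4l UMI was found in 54.5% of these ESCs and 74.1% of these 48h-EpiLCs. Trp53inp1 was 2.13-fold (1.24 to 3.41) and 2.24-fold (1.61 to 3.04) higher.

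The remaining targets were closer to the unmarked cells, and Trp53 was lower in both (0.644-fold and 0.755-fold). In all, 4 and 2 of the 10 genes were at least 1.5-fold higher, against 21% of 9382 genes and 17.9% of 9558. Median depth was 7000.5 UMIs in the marked ESCs against 11884 in the unmarked ones.

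Members were spread unevenly over cells. The 1% of ESCs with the most Cdkn1a held 23.6% of its UMIs, or 20.6% among cells without markers of other cell types and 13.7% without those at the looser marker share of 0.05%. For Mdm2 this share was 8.57% at the looser marker share. In 48h-EpiLCs the share of Cdkn1a was 7.46%, and 7.49% at the looser marker share. Shares of genes at other levels are not set beside these, since sparse counts raise them.

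Co-detection asked whether target RNAs occurred in the same cells. Each cell was thinned to 5000 UMIs, which left out 502 ESCs and 203 48h-EpiLCs, and the number of cells with at least 1 UMI of both genes was divided by the number given by the product of the single shares. After thinning, Trp53 was detected in 80.4% of ESCs, Mdm2 in 40.0%, Cdkn1a in 22.04% and Ddit4l in 6.36%. In 48h-EpiLCs the shares were 67.9%, 45.1%, 34.0% and 13.9%. No cell type that should lack these RNAs was present to give a background share. The feeder markers in WT ESCs stood at 0.495% of their level in the feeder-marker cells. Those cells held only 0.937% of the UMIs of the library, so this value does not measure the share of free RNA. That share was not estimated.

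Targets were found together more often than their single shares gave. Over the 36 pairs of targets the median ratio was 1.23 in ESCs (1.05 to 1.70) and 1.11 in 48h-EpiLCs (0.998 to 1.33). In ESCs 22 of the 45 pairs of members reached 1.2, against 3.97% of 97470 pairs of a member with any other gene. In 48h-EpiLCs 5 of 45 pairs did, against 1.3% of 98990. The median over pairs with other genes was 0.999 and 1.00.

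Ddit4l and Cdkn1a led. In ESCs they were found together in 252 cells where the product gave 147.9, a ratio of 1.70, and the ratio was 1.66 without cells that carried markers of other cell types and 1.59 without those at the looser marker share. Trp53inp1 and Ddit4l had a ratio of 1.58, and Cdkn1a with Phlda3 1.46 (947 cells, 650.1 by the product). Mdm2 with Cdkn1a was 1.36, from 1262 cells. In 48h-EpiLCs all of the 5 pairs at 1.2 or more included Ddit4l, with Bbc3 (1.33, 274 cells against 206.7) and Trp53inp1 (1.31) ahead of Cdkn1a, Phlda3 and Mdm2. Ddit4l was the member detected in the fewest cells, and the one that reached 1.2 with other genes most often. It did so with 12.4% of other genes in ESCs and 4.45% in 48h-EpiLCs, beside 7 and 5 of its pairs with members. For Cdkn1a these shares were 6.7% and 0.788%, beside 7 and 1 of its pairs.

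Aen was the target with the smallest ratios, with medians over the other members of 1.08 and 1.04. Within the lines, the median of all 45 pairs was 1.15 in WT and 1.16 in KO ESCs, against 1.19 over all cells. It was 1.09 in WT and 1.06 in KO 48h-EpiLCs, against 1.09 over all. Of the 36 pairs of targets, 32 in WT and 35 in KO ESCs had a ratio above 1, beside 49.1% and 49.3% of pairs of a target with any other gene. In 48h-EpiLCs 30 and 32 did, beside 48.9% and 49.9%. Over all ESCs the 36 pairs were above 1 with all kept cells, beside 48.0% of pairs of a target with any other gene. They were also above 1 without cells at the looser marker share, beside 48.2%. There their median was 1.21 and 19 reached 1.2, beside 2.87% of pairs of a target with any other gene.

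Trp53 was close to the product of the shares. Its 9 pairs with targets had ratios of 0.974 to 1.00 in ESCs and, all slightly above 1, of 1.00 to 1.04 in 48h-EpiLCs. A gene detected in most cells leaves little room for a ratio above 1, so odds ratios were taken too. Their median was 0.962 for the pairs of Trp53 and 1.46 for the pairs of targets in ESCs, and 1.04 (1.02 to 1.16 over the 9 pairs) and 1.32 in 48h-EpiLCs. Sorted by Trp53 UMIs after thinning (0, 1, 2, and 3 or more), ESCs had 622, 580, 583 and 617 CPM of the 9 targets together, with no ordered change. In 48h-EpiLCs the sums were 835, 864, 868 and 904 CPM, in increasing order. Within the lines they were not ordered, at 743, 658, 786 and 772 CPM in WT and 965, 991, 938 and 960 CPM in KO 48h-EpiLCs.

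**Figure D4:**
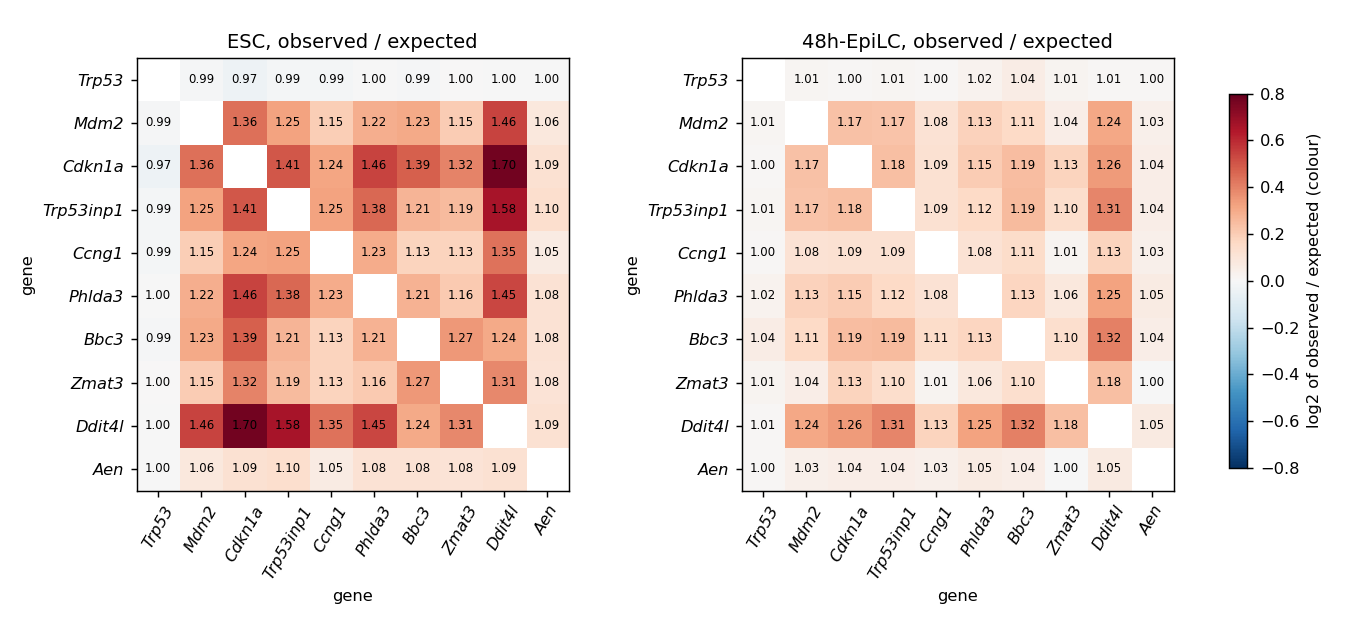
Ratio of observed to expected co-detection for each pair of members at 5000 UMIs per cell in ESCs (left) and 48h-EpiLCs (right). Numbers are the ratios and colour is their log2. The row of Trp53 is close to 1 throughout, while Cdkn1a with Ddit4l reaches 1.70 in ESCs and Bbc3 with Ddit4l 1.33 in 48h-EpiLCs.

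The joint pattern was also seen in the number of targets per cell. Without cells that carried markers of other cell types, ESCs had a mean of 2.20 of the 9 targets detected at 5000 UMIs, with an SD over cells of 1.52, where independent detection at the same shares gave 1.24. Both ends of the distribution were fuller: 11.9% of ESCs (11.3% to 12.5%) had none of the 9 against 7.15% expected, and 3.01% (2.69% to 3.36%) had at least 6 against 0.611%. That was 314 cells where 63.7 were expected.

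In 48h-EpiLCs the mean was 3.00 and the SD 1.60, against 1.34. None of the 9 was found in 4.18% of cells against 2.04%, and at least 6 in 6.93% (6.42% to 7.47%) against 3.38%. The excess at 6 or more targets was 4.93-fold in ESCs and 2.05-fold in 48h-EpiLCs. Without cells at the looser marker share it was 4.61-fold and 2.06-fold, and 2.69% of ESCs had at least 6 targets.

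By line, WT and KO ESCs were close, with means of 2.32 and 2.15 targets and with 3.23% (1.77% to 5.35%) and 3.01% (2.43% to 3.69%) of cells at 6 or more. KO 48h-EpiLCs had more targets per cell than WT 48h-EpiLCs, with means of 3.27 and 2.67. Cells with at least 6 made up 8.39% (7.42% to 9.45%) of KO and 4.63% (2.72% to 7.31%) of WT 48h-EpiLCs, and cells with none 2.49% and 5.72%. Independent detection at the shares of each line gave 5.04% and 1.88% at 6 or more. The excess there was thus smaller in KO (1.66-fold) than in WT 48h-EpiLCs (2.47-fold, from 17 WT cells). In ESCs it was 5.75-fold in KO and 3.77-fold in WT cells, the latter from 14 cells.

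**Figure D5:**
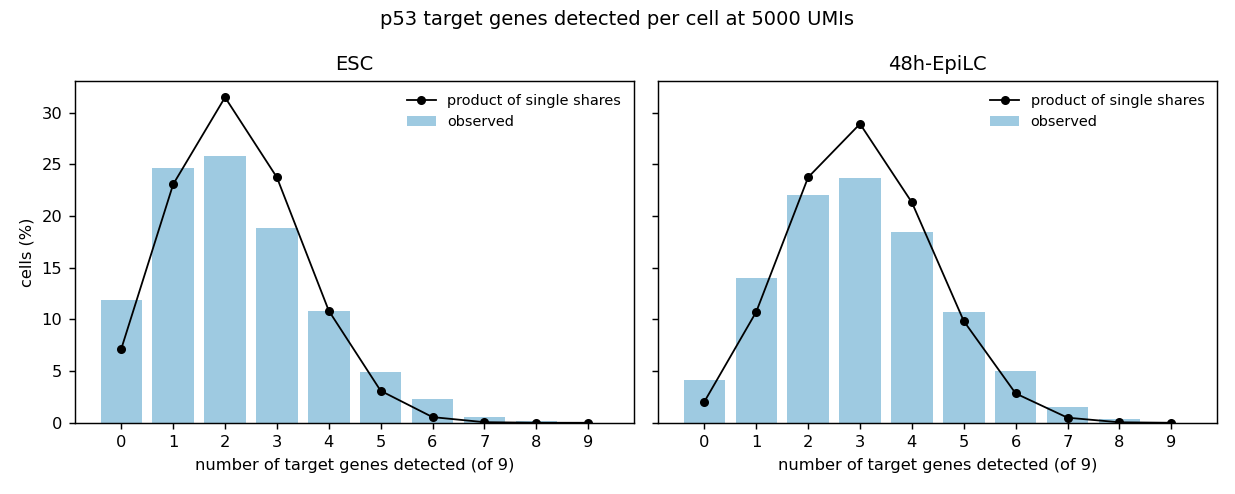
Percentage of cells by the number of the 9 targets detected at 5000 UMIs per cell, without cells that carried markers of other cell types (bars), and the percentages given by the product of the single shares (line). In both libraries more cells than expected have 0 targets (11.9% against 7.15% in ESCs) and 6 or more (3.01% against 0.611%).

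Genes outside the set that went with it were ranked by the Pearson correlation of log2(UMIs + 1) with the summed targets over thinned cells. In ESCs without cells of other types, Btg2, an antiproliferative p53 target, came first (r = 0.26 over 10434 cells), followed by the p53 target Plk2 (0.24), Sdc4 (0.23), Cald1 (0.21) and Serpine2 (0.19). Further down were S100a6, Cd81, Tm4sf1, Timp2 and Perp (0.16), the last a p53 target of cell death. The median gene was at -0.0010. H2afz was at the other end, at -0.17. Cald1, Serpine2, S100a6, Tm4sf1 and Timp2 also led with all kept cells, where the extracellular matrix genes Bgn and Fbln2 entered the first 10, both at 0.24. Without cells at the looser marker share these 7 and Perp were not among the first 10. The leading genes there were Sdc4 (0.23), Btg2 (0.23), Plk2 (0.21) and Psrc1 (0.16), and Mdm4, the partner of Mdm2 in restraining p53, was among the first 10 (0.13).

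In 48h-EpiLCs the leading genes were mt-Cytb (0.20) and Btg2 (0.19), followed by Gm47283, Gm10260, 1700007K13Rik, Pmm1, Ptp4a3, Sdc4 (0.14), BC004004 and Hspb1. At the looser marker share Zfp365 took the place of Hspb1. At the other end were Pim2 (-0.20), Rpl26 (-0.19) and Rpl35a (-0.18). Btg2 and Sdc4 were among the first 10 in both libraries. These correlations share cells and depth, are weak, and are given as a description. They were taken over both lines together and not within a line, so genes that differ between the lines can enter them.

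Of 40 other p53 targets from the literature of the pathway, 39 were in the files. Between the lines, 8 of 32 tested were at least 1.5-fold higher in KO ESCs (13.9% of all genes) and 1 was lower (5.61%), and in 48h-EpiLCs 7 of 34 were higher (9.04%) and 1 lower (4.95%). Plk3, a stress-responsive kinase, was higher in KO cells at both stages (log2 ratios of 0.64 and 1.39), as were Ei24 (0.65 and 0.75), a membrane protein of the endoplasmic reticulum, and the adenylate kinase Ak1 (0.61 and 0.91). The list medians were 0.03 and 0.16, against 0.13 and 0.08 over all genes.

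From ESCs to 48h-EpiLCs, 6 of 33 of these targets were at least 1.5-fold higher and 8 lower in WT cells, beside 14.6% and 12.4% of all genes, and 6 and 4 of 34 in KO cells, beside 9.51% and 11.1%. Pmaip1, which encodes the BH3-only protein NOXA, was higher in both lines (log2 ratios of 1.31 in WT and 1.49 in KO cells). Tap1, a peptide transporter of antigen presentation, was higher too (2.41 and 2.00), and so was Dcxr, a carbonyl reductase (0.91 and 0.96). The diacylglycerol kinase gene Dgka (-1.37 and -1.23), Plk3 (-1.52 and -0.78) and Ccnd2 (-0.63 and -1.69) were lower.

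Of 25 regulators of p53, none of the 22 tested passed 1.5-fold between the lines in ESCs, beside 13.9% of all genes higher and 5.61% lower in KO cells. In KO 48h-EpiLCs 2 of 23 were higher and 0 lower, beside 9.04% and 4.95%. With stage, Sirt1, a deacetylase of p53, was lower in 48h-EpiLCs (log2 ratios of -1.25 in WT and -0.99 in KO cells) and Cdkn2a higher (0.62 and 0.76). Cdkn2a encodes p19Arf, the inhibitor of Mdm2, as well as p16.

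The 20 cell cycle genes that p53 represses through p21 and the DREAM complex did not pass 1.5-fold between the lines in either library. Of all genes, 13.9% were higher and 5.61% lower in KO ESCs, and 9.04% and 4.95% in KO 48h-EpiLCs. The list medians were 0.20 in ESCs and 0.37 in 48h-EpiLCs, against 0.13 and 0.08 over all genes. With stage, Bub1b was lower (-0.78 and -0.61). Among 19 cyclins, kinases and inhibitors, Cdkn2b (p15) was higher in KO cells at both stages (1.42 and 1.11). The G1 cyclins Ccnd3 (-1.81 and -1.69) and Ccne1 (-0.69 and -0.80) were lower in 48h-EpiLCs of both lines.

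Among the genes of apoptosis, anti-apoptotic Bcl2l1 was lower in 48h-EpiLCs than in ESCs (log2 ratios of -0.59 in WT and -0.69 in KO cells). Of the 17 tested genes of the integrated stress response, a separate stress pathway, 4 were higher and 4 lower in KO ESCs, beside 13.9% and 5.61% of all genes, and 0 higher and 5 lower in KO 48h-EpiLCs, beside 9.04% and 4.95%. Lower at both stages were Stc2 (-1.12 and -1.51), the mTORC1 inhibitor Ddit4 (-0.85 and -1.36), Phgdh (-0.65 and -0.73) and Asns (-0.61 and -0.90). Ddit4, the paralogue of Ddit4l, was thus lower in KO 48h-EpiLCs, in which Ddit4l was higher.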

How the data were processed

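The deposited values were UMI counts per gene and cell barcode, made by the authors with Cell Ranger on mm10 with the tdTomato coding sequence added (Chromium 3′ v2 chemistry). The submitters' processing notes name Cell Ranger 3.0.2 and Seurat 4. Whether counting used strand, and whether free RNA was corrected for, is not given in the sources used here. Of the 32286 features, 32235 were found by identifier in GENCODE M21 (GRCm38).

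The genes, lists and measures were chosen with earlier results of these data known. UMIs were summed per line and library and scaled to CPM (Python 3.11.15, numpy 2.4.6, scipy 1.17.1, pandas 2.3.3). The sums held 6154790 (WT) and 44110356 (KO) UMIs in ESCs, and 6219834 and 59291903 in 48h-EpiLCs, so that WT values are the less precise. Levels carry exact Poisson intervals, ratios exact binomial intervals given the sum of both counts, and shares exact (Clopper-Pearson) intervals, all at 95%. Cells are not replicates, and no p-value was computed. All genes with a mean of at least 5 CPM served as background, with 1.5-fold as the call. Ratios and co-detection were tested on simulated counts with known answers.

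No doublet caller was run: the line rules left out cells with both marks, and an alternative left out the 10% of cells with the most UMIs. Cells of other types were set apart by markers (0.2% of UMIs for feeder and primitive endoderm, 0.1% for 2-cell-like and mesendoderm lists). 17 ESCs met the primitive endoderm list and no cell the mesendoderm list. Of other lists, every gene past 1.5-fold in the same direction in both libraries (lines) or both lines (stage) was named, at most 6 and 4 per list, and the first 10 correlated genes per library. One gene that met this rule is not reported here. TMM factors came from edgeR 4.0.16. Alternatives covered the scaling, line rules, filters, pseudocount and thinning.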

Additional observations from a re-analysis of the deposited data

Results flagged for a closer look

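Trp53, Cdkn1a and Trp53inp1 drew a closer look because their ratios of KO over WT had opposite signs at the 2 stages, with intervals on opposite sides of 0. The log2 ratio of Trp53 was larger in 48h-EpiLCs than in ESCs by 0.411, that of Trp53inp1 by 0.913, and that of Cdkn1a was smaller, at -0.372. The change of Trp53inp1 with stage likewise went down in WT and up in KO cells, which is the same difference of 0.913. With 1 library per stage these differences were not tested. The ratio of Cdkn1a in ESCs moved with the cells that carried markers of other cell types (0.17 with them, -0.019 without them), so that its opposite signs rest on those cells. With the lines extended to more cells, the intervals no longer lay on opposite sides of 0 for Trp53inp1, whose ESC ratio was 0.965-fold (0.919 to 1.01), nor for Cdkn1a, whose 48h-EpiLC ratio was 0.988-fold (0.956 to 1.02).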

How the results depend on the processing

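No paired analysis was possible because each stage had 1 library and the labels give no replicate numbers, and for the same reason no replicate could be left out. Under the alternatives, 617 single-gene ratios stayed within the counting error of the main value, 59 moved beyond it and 2 reversed, and of medians and counts 209 stayed (counts within 1.5 times) and 17 moved. Both reversals were the Cdkn1a ratio of KO over WT in ESCs: -0.0190 without cells that carried markers of other cell types and -0.267 at the looser marker share of 0.05%. The median of KO over WT in ESCs was -0.11, went to -0.23 with median-of-ratios size factors, and relative to the median of all genes stayed at -0.23. Members at least 1.5-fold lower in KO ESCs numbered 1 (Zmat3) in place of 0 with TMM factors, with median-of-ratios factors, without ribosomal protein and mitochondrial genes in the total, with means of per-cell CPM, without cells of other types at either marker share, without the 10% of cells with the most UMIs, and in cells of 10000 to 20000 UMIs. Members at least 1.5-fold higher in KO 48h-EpiLCs numbered 0 in place of 3 with the first 3 of these settings. The stage median in the KO line, 0.50, became 0.62 without the 10% of cells with the most UMIs, 0.70 in cells of 10000 to 20000 UMIs (with 7 members at least 1.5-fold higher in place of 4) and 0.60 at the looser marker share. The medians and shares of all genes under these settings are not given here. In the WT line, 1 member in place of 2 was at least 1.5-fold higher with stage among genes of at least 20 CPM. The range of depths, the looser marker share (also for co-detection and correlated genes) and the extended lines without cells of other types were added after seeing the data. The median co-detection ratio ranged from 1.15 to 1.24 in ESCs and from 1.06 to 1.09 in 48h-EpiLCs over thinning to 3000 or 8000 UMIs, no thinning and the cell choices. Pairs at 1.2 or more ranged from 16 to 26 in ESCs and from 1 (no thinning) to 13 (WT cells alone) in 48h-EpiLCs, with 11 at 3000 UMIs. In WT cells alone, 18.3% of pairs of a target with any other gene reached 1.2 in 48h-EpiLCs, and 19.2% in ESCs. The WT line held few cells, so that ratios of Bbc3, Zmat3 and Ddit4l have wide intervals.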
